A study of Mus musculus with 12 samples.

Results

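Conventional CD4 T cells, the helper T cells that carry Cd4 without Foxp3, were picked out of the tumours by their own transcripts, that is, they were chosen by measured UMI counts. A cell was a member if it had at least 2 unique molecular identifiers (UMIs, each standing for 1 captured transcript) over the CD3 genes Cd3e, Cd3d and Cd3g and at least 1 for Cd4. It could have none for Foxp3, for the CD8 genes Cd8a and Cd8b1, or for the complement genes C1qa, C1qb and C1qc that mark macrophages. CD8 T cells, used for comparison, passed the same CD3 and complement limits with a CD8 UMI and none for Cd4 or Foxp3, and regulatory cells with Cd4, Foxp3 and no CD8 UMI. The rule left 823 members among 116375 cells assigned to a tumour, and among 5542 cells past the CD3 and complement limits alone. The levels of these 10 genes are therefore not findings, and they were left out of every test across genes.

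The cells came from mouse tumours that the labels name SCC35, in a series about melanoma rejection. Control lines 15 and 18 were set against lines 19 and 24, which the labels call Mif KO (knockouts of Mif, a secreted cytokine that acts on macrophages and T cells). Tumours were dissociated, marked with hashtag antibodies, which carry a DNA barcode, and sorted for live cells. Of the 6 libraries, 4 held a single line and 2 held several. The hashtag sheet ties every hashtag to a line and to a day, which was 0, 6, 10 or 16, with a letter for the tumour. Letter C always came from a mixed library. The labels used here do not say the strain, sex or age of the mice, where the cells were placed, or how the knockout was made, and each line number may stand for 1 clone. Nor do they say what day 0 is or where 3 further tumours called WT came from. WT tumours entered no test between Mif KO and control. The WT tumour of day 10 entered the alternative fit against CD8 T cells with at least 10 cells of each class. WT cells are part of the mixed library 2 sums set against regulatory cells, of values pooled over all members and of the ranges of V gene shares over tumours. Members were present in 37 of 38 tumours of days 6, 10 and 16 and in none of 7 samples of day 0, where 0 of 5769 cells allows a share of up to 0.052%. By line, 62 members came from line 15, 62 from line 18, 288 from line 19, 377 from line 24 and 34 from WT tumours.

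CD4 T cells recognise peptides on MHC class II molecules through an αβ T cell receptor with CD4 as co-receptor. After activation they help other cells through surface ligands such as CD40 ligand, encoded by Cd40lg, and through secreted cytokines. Subsets are told apart by cytokines and transcription factors: Th1 cells make interferon gamma under T-bet (Tbx21), Th2 cells make Il4 and Il13 under Gata3, Th17 cells make Il17a, and follicular helper cells make Il21 under Bcl6. In tumours such cells can be cytokine producers, helpers of CD8 T cells or, where they carry Foxp3, regulatory cells.

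The markers set for the label were checked first. Icos, a costimulatory receptor induced on activated T cells, had a UMI in 57.8% of members and Cd28, the receptor that costimulates naive T cells, in 29.9%. The median member had 1839 UMIs. Cells without a UMI for Ptprc, the pan-leukocyte gene, were far deeper at a median of 5909 UMIs. Cd40lg was found in 18.6% of members, against 0.63% of CD8 T cells and 0.26% of cells with no Ptprc UMI. After thinning to 1000 UMIs per cell, which left out 76 members and 101 CD8 T cells as too shallow, Cd40lg remained in 8.97% of members and 0.367% of CD8 T cells. None of these 3 genes is read by the rule, and their levels fit the label. At the limits of the rule Icos and Cd28 did not all point one way. The 145 members with 2 CD3 UMIs had 355.5 CPM of Icos (CPM is the count scaled to a common total of UMIs), and the 145 cells left out with 1 CD3 UMI had 191.6 CPM. Cd28 stood at 89.4 and 86.7 CPM in the same cells, and Icos at 277.3 CPM in cells left out for 1 complement UMI against 304 CPM in all members. The 51 cells left out for 1 Foxp3 UMI had more of both, at 603.7 CPM of Icos and 125.6 CPM of Cd28 beside 109 CPM of Cd28 in all members, and the 12 left out for 1 CD8 UMI had 133.2 and 122.9 CPM. The 2669 CD3-gated cells with no Cd4, CD8 or Foxp3 UMI had 167.1 CPM of Icos, against 312.7 CPM in the 552 members with a single Cd4 UMI. That large group may hold CD4 cells whose Cd4 transcript was missed, and a single Cd4 UMI may also place a cell wrongly among the members. Foxp3 can be missed too: of the 82 regulatory cells 51 had a single Foxp3 UMI, so some members may be regulatory cells. How many was not tested.

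Other cells' transcripts were present in some members. Over 6 genes of connective tissue and epithelium (Sparc, Col1a1, Col1a2, Col3a1, Krt8, Krt18), called the line list here, 198 members (24.1%) held 3 or more UMIs, and these carried 57.0% of all member UMIs. Their median depth was 7707 UMIs against 1559 UMIs in the other members. CD8 T cells held such cells at 25.6% and regulatory cells at 26.8%, and cells without a Ptprc UMI at 78%. By library the share ran from 15.7% (control line 15) to 34.1% (control line 18). No doublet caller was run, so a barcode may hold a T cell and a tumour cell of the same hashtag. Results are therefore also given over the members with fewer than 3 line-list UMIs. B cell, neutrophil, dendritic and NK genes were low. Ms4a1 and Zbtb16 had no count in any member of a control or Mif KO tumour. The neutrophil list summed to 0 CPM in control and 0.799 CPM in Mif KO members. The B cell list summed to 20.5 and 13.2 CPM, the dendritic list to 5.6 and 13.6 CPM and the NK list to 13.1 and 9.19 CPM. In single tumours with at least 10 members these 3 lists reached 86.7, 60.5 and 65.4 CPM. The macrophage list of 9 genes summed to 302 CPM in control members, with 8 of the 9 present and Adgre1 at 0, and to 425 CPM in Mif KO members, with all 9 present. In tumours with at least 10 members the sums ran from 24.5 to 84.7 CPM (control, 5 tumours) and from 0 to 1215 CPM (Mif KO, 14 tumours). No barcode was a member in 2 libraries, although 116 member barcodes also occurred on an assigned cell of another library, as 14659 barcodes of assigned cells did overall.

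**Figure D1:**
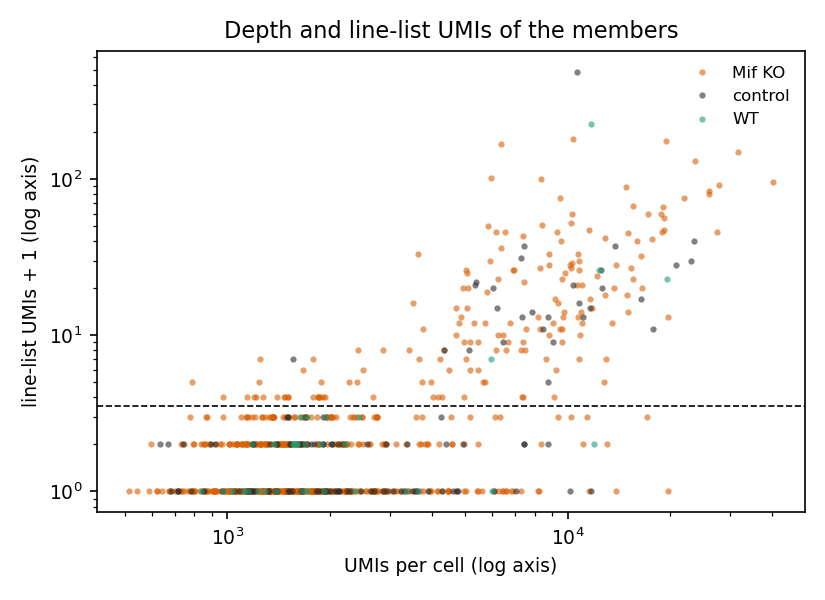
UMIs per cell (log axis) against line-list UMIs plus 1 (log axis) for each of the 823 members, with colours for Mif KO, control and WT tumours and a dashed line below which a member has fewer than 3 line-list UMIs. The 198 members above the line sit mostly among the deepest cells.

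The rule did not read the variable (V) genes of the T cell receptor, and 2 of them were frequent in a part of the members, 274 with either gene beside 362 with other V genes alone. Trbv26, a β-chain V gene, was found in 160 of the 527 members with any Trbv UMI (30.4%, exact 95% interval 26.5 to 34.5%, for counting error only). Trav6-7-dv9, an α-chain V gene, was found in 180 of the 376 members with any Trav UMI (47.9%, 42.7 to 53.1%). The next most frequent were Trbv13-2 at 16.9% and Trav14n-3 at 4.26%. In CD8 T cells Trbv26 was found in 22 of 1195 (1.84%) and Trav6-7-dv9 in 20 of 561 (3.57%). Outside the CD3 gate they had a UMI in 0.171% and 0.256% of 110833 cells, which include some T cells left out by the limits, and in 0.10% and 0.149% of the 92603 of these with no Ptprc UMI. CD3-gated cells with no Cd4, CD8 or Foxp3 UMI had Trbv26 in 13.0% and Trav6-7-dv9 in 28.1%, and regulatory cells in 11.8% and 15.9%, so the pair was not particular to the members. The V exons below are shown because this pair was the most frequent of its loci in members, and because a near copy limits what the α-chain count means. Capitals mark the bases at which Trav6-7-dv9 and Trav6d-7 differ.
Trbv26: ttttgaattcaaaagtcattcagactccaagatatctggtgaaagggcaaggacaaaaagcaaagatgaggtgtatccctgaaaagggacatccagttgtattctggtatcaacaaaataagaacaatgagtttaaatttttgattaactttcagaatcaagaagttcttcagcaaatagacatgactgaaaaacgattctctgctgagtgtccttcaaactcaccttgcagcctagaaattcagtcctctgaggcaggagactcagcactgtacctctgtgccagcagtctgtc
Trav6-7-dv9: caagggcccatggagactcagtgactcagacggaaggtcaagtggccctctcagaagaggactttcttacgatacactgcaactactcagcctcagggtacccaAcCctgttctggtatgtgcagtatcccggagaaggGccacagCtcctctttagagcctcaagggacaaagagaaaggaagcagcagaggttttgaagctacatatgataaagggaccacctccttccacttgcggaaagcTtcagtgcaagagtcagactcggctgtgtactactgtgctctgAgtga
Trav6d-7: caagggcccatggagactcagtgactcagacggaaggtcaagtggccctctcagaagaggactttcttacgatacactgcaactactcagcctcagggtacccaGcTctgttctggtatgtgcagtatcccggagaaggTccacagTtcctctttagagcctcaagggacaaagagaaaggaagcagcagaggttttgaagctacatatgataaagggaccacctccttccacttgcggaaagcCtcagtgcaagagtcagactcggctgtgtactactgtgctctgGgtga
The exons lie at chr6:41227699-41227993, chr14:53710128-53710419 and chr14:53007807-53008098, all on the plus strand of GRCm38, in the GENCODE M21 annotation, and code the variable part of the receptor. Counted from 1 at the 5′ end of the exon, with the base of Trav6-7-dv9 first, the differences are A105G, C107T, G140T, C147T, T245C and A288G. A further copy, Trav6n-7 (chr14:53318993-53319284), is identical to Trav6d-7 over the exon. Reads that fall between these 6 positions cannot be assigned to 1 copy, so the α-chain counts are uncertain between copies. The choice of Trav6-7-dv9 was made after its counts were seen.

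Both V genes were spread over many tumours. One or the other was found in 274 members from 30 of the 37 tumours with a member, and both in 66 members. Among the 267 members with a UMI for both chains, Trav6-7-dv9 was found in 71.0% (60.6 to 79.9%) of those with Trbv26 and in 32.2% (25.3 to 39.7%) of those with another Trbv gene. In the 16 tumours with at least 10 members with a Trbv UMI, Trbv26 ran from 0% to 73.3% with a median of 28.6%. The lowest was a WT tumour of day 10 (0 of 11) and the highest was tumour A of line 24 at day 10 (11 of 15). In the 9 tumours with at least 10 such members for Trav, Trav6-7-dv9 ran from 18.5% to 73.7% with a median of 47.1%. Pooled by line, Trbv26 stood at 44.9 and 18.4% in control lines 15 and 18, at 24.2 and 36.7% in Mif KO lines 19 and 24, and at 9.52% in WT, so neither group held both high lines. By day, Trav6-7-dv9 stood at 35.7% (day 6), 57.8% (day 10) and 35.9% (day 16). Cells of 1 tumour can share a clone, so these pooled shares were not tested between groups.

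The pair was also counted in related cells, without a test. Regulatory cells had Trbv26 in 6 of 51 (11.8%, 4.44 to 23.9%) and Trav6-7-dv9 in 7 of 44 (15.9%, 6.64 to 30.1%). Trav6-7-dv9 was the most frequent Trav gene in regulatory cells and in CD3-gated cells with no Cd4, CD8 or Foxp3 UMI. Without line-list cells the members stood at 30.4% and 49.6%. Junction sequences were not analysed here, so the V genes do not show how many clones the members hold. Members with either gene and the 362 members with other V genes had 464 and 443 CPM of Tnfrsf4, and 292 and 286 CPM of Icos. Ccl1 stood at 289 CPM against 137 CPM and Ccl5 at 268 CPM against 472 CPM. These are sums over cells of many tumours and carry no test.

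**Figure D2:**
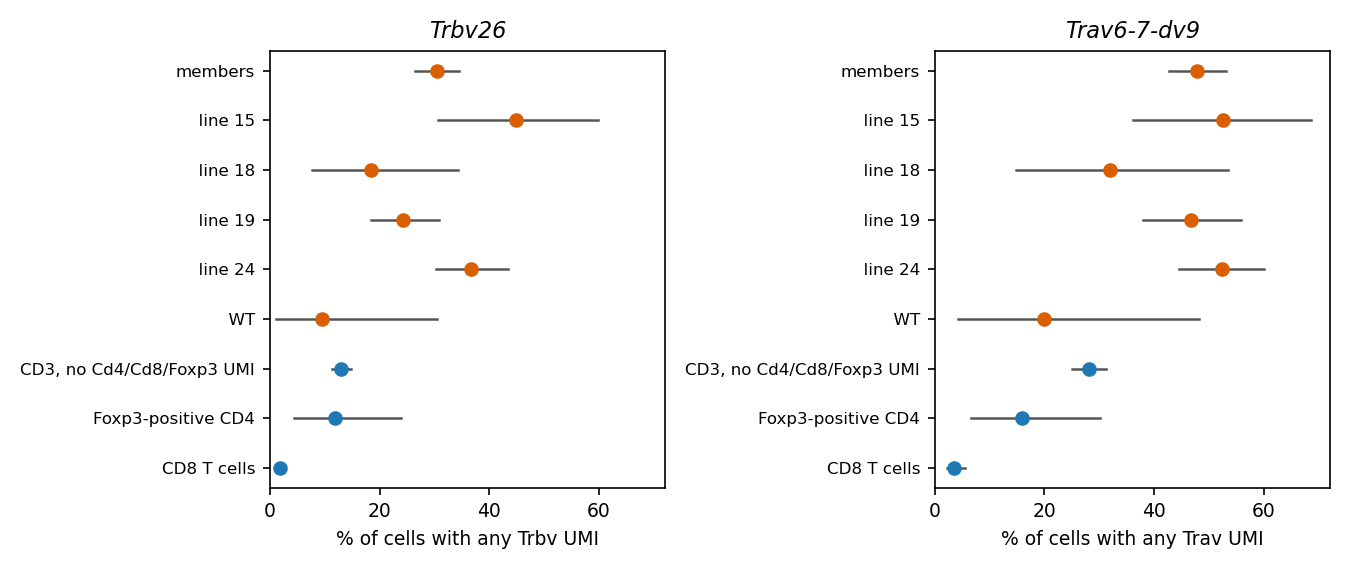
Percent of cells with Trbv26 among cells with any Trbv UMI (left) and with Trav6-7-dv9 among cells with any Trav UMI (right), for all members, members by line, and 3 other classes of CD3-gated cells, with exact 95% intervals of counting error. Members stand at 30.4% and 47.9%, CD8 T cells at 1.84% and 3.57%.

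The abundance of members was then compared between Mif KO and control tumours. Members were a larger share of all cells in Mif KO than in control tumours, and the mean was higher on each of the 3 days. At day 6 the 5 Mif KO tumours had 0.218, 0.373, 0.443, 0.613 and 0.905%, a mean of 0.51% ± 0.262 (SD), and the 6 control tumours ran from 0.0627% to 0.425% with a median of 0.245%. At day 10 the Mif KO tumours ran from 0.61% through a median of 1.83% to 3.84% and the control tumours from 0% through 0.279% to 1.21%. At day 16 the ranges were 0.446% to 1.82%, with a median of 0.938%, and 0.123% to 0.725%, with a median of 0.187%. The groups overlapped on each day, with the highest control tumour above the lowest Mif KO tumour. The difference, weighted within day over 17 Mif KO and 18 control tumours, was 0.876 percentage points (permutation of group within day, 100000 resamples, two-sided p = 3e-05). In the mixed libraries alone, where both groups were captured together, it was 1.08 points (exact permutation p = 0.037, n = 6 and 6). In the single-line libraries it was 0.774 points (permutation p = 0.00039), but each of these holds 1 line, so group and library cannot be told apart there. Line is nested in group, and over the 4 line means the difference of 0.907 points had an exact permutation p of 0.333, the smallest that 2 lines against 2 allow. This share also falls when a tumour holds more cells of other kinds, and fewer cells cannot be told apart from cells missed by the gate.

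Among T cells the picture was less firm. In tumours of days 10 and 16 with at least 50 CD3-gated cells, members were 17.1% ± 5.62 (SD, n = 12) of them in Mif KO and 10.0% ± 7.25 (SD, n = 6) in control tumours. The difference weighted within day was 6.49 points (exact permutation p = 0.0469, two-sided). It did not pass with at least 2 Cd4 UMIs (2.20 points, p = 0.218), with cells thinned to 1000 UMIs (2.78, p = 0.517), with tumours of at least 20 CD3-gated cells (1.88, p = 0.447) or over the line means (5.47, p = 0.333), all by permutation. Without line 19 it was 3.58 points (exact permutation p = 0.446) and without line 24 it was 10.04 points (p = 0.0171). Without control line 15 it was 5.61 points (exact permutation p = 0.0374) and without control line 18 it was 6.62 points (p = 0.184). The gap was 13.6 points at day 10, against 2 control tumours, and 2.04 points at day 16. One of those 2, C of line 15, had 0 members among 56 CD3-gated cells, and without it the difference was 3.22 points (exact permutation p = 0.28). With each of the 18 tumours left out in turn, 5 of the fits passed. CD3-gated cells as a whole were also more frequent: Mif KO tumours of day 10 held 1905 such cells among 20321 and control tumours 300 among 13087. No control tumour of day 6 had 50 CD3-gated cells, so days 6 and 16 were compared in Mif KO tumours alone. Weighted within line, the members' share of CD3-gated cells was 3.21 points higher at day 16 (6 tumours) than at day 6 (4 tumours). This did not pass (exact permutation within line, p = 0.138).

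**Figure D3:**
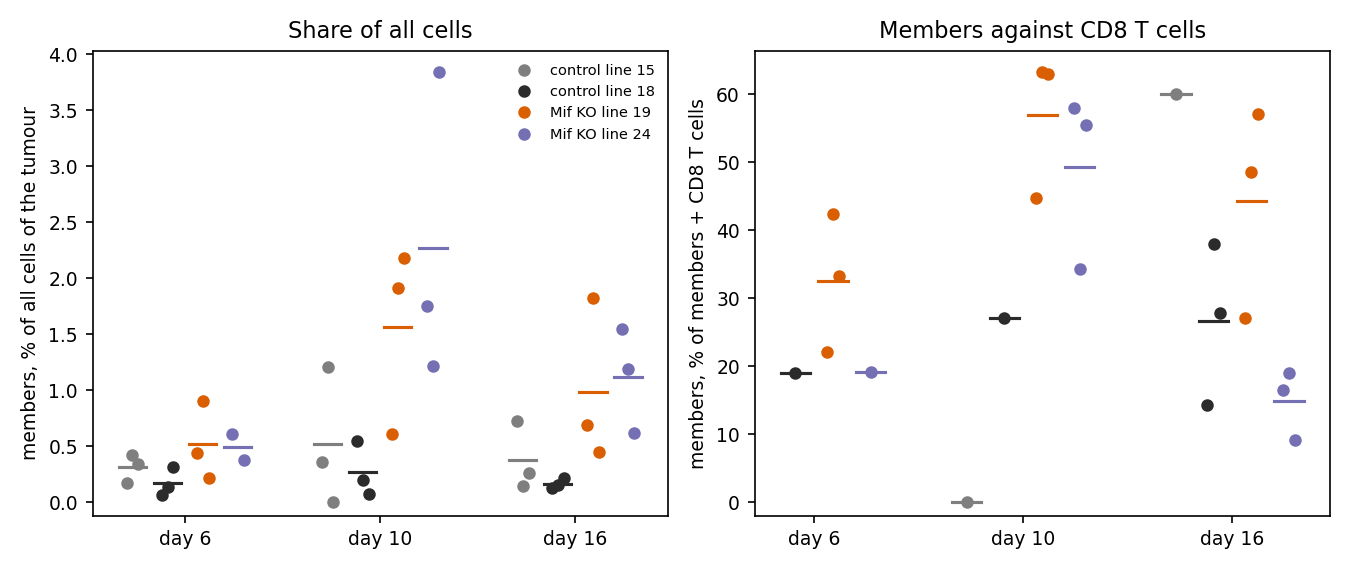
Members as a percent of all cells (left) and of members plus CD8 T cells (right, tumours with at least 20 such cells) by day, with 1 point per tumour, a colour per line and a bar at each mean of line and day. Line 24 at day 16 lies at 9.09 to 19% on the right while its day 10 tumours lie at 34.3 to 57.9%.

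Set against CD8 T cells, the killer arm of the T cell response, the members peaked at day 10 in Mif KO tumours. Summed over tumours there were 74 members and 162 CD8 T cells at day 6, 381 and 365 at day 10, and 210 and 798 at day 16, or 45.7, 104 and 26.3 members per 100 CD8 T cells. Control tumours held 48.1, 40.6 and 59.8 per 100, from 26, 43 and 55 members. At day 10 tumour C of line 15 gave 0 members and 38 of the 106 control CD8 T cells, and without it the control ratio was 63.2 per 100, so no dip at day 10 is read from these sums. Per Mif KO tumour, members were 53.1% ± 11.4 (SD, n = 6) of the 2 classes at day 10 and 29.6% ± 19.1 (SD, n = 6) at day 16. The difference was 23.5 points (exact permutation of day within line, p = 0.015, two-sided), and this comparison was chosen after the counts were seen. The gap was wider in line 24, with 57.9, 34.3 and 55.5% at day 10 and 16.5, 19.0 and 9.09% at day 16, which do not overlap. Line 19 had 44.7, 63.2 and 62.9% at day 10 and 27.0, 48.6 and 57.1% at day 16, which do. With either line left out the p-value was 0.1 (line 24 alone, the smallest that 3 against 3 allow) and 0.3 (line 19 alone), by exact permutation. Members themselves went from 1.92% ± 1.10 to 1.05% ± 0.557 of all cells between these days (SD, n = 6 each), while CD8 T cells went from 1.64% ± 0.882 to 3.87% ± 2.93. The CD8 rise was larger in line 24, from 1.27, 2.34 and 3.08% to 7.84, 5.08 and 6.18%, while line 19 had 0.753, 1.11 and 1.29% and then 1.86, 1.92 and 0.334%. Whether the day 10 excess of members was larger in Mif KO than in control tumours was tested on the share of all cells and did not pass (0.997 points, permutation p = 0.141). On the share of CD3-gated cells it did not pass either (3.09 points, permutation p = 0.639). Shuffling group within day also removes the difference common to all days, so these misses do not show equal gaps. The share among members and CD8 T cells was not tested in this way.

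Gene expression was compared between members and CD8 T cells of the same tumours, which asks what the helper cells transcribe that the killer cells beside them do not. Members were higher for helper ligands and cytokines (Tnfsf11, Ccl1, Ifng), for costimulatory receptors (Tnfrsf4, Tnfrsf18, Icos), for the chemokine receptor Ccr8 and for the factors Maf and Rora. Regulatory cells, compared below, had higher medians than members for these receptors and for Maf. Members were lower than CD8 T cells for granzymes and other cytotoxic genes, for Ccl5 and Xcl1, and for Ly6c2. Counts were summed per class in the 10 tumours with at least 20 cells of each, all of them Mif KO, and fitted with tumour as a block. At an edgeR adjusted p of 0.05, 142 of 3691 genes passed (3.85%), and of these 103 rose (2.79%) and 39 fell (1.06%). Without line 24 only 4 tumours of line 19 remained and 19 genes passed, 17 of them shared, while 138 passed without line 19. Over cells with fewer than 3 line-list UMIs 225 of 1462 genes passed, 102 of them shared with the 142. With at least 2 Cd4 UMIs 34 genes passed.

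Ligands and cytokines came first in size. Tnfsf11, which encodes the TNF-family ligand RANKL, ran from 140 through a median of 273 to 436 CPM in members and from 5.69 through 18.3 to 54.5 CPM in CD8 T cells. Every member sum lay above every CD8 sum. The edgeR fit put it at 3.77 on the log2 scale (SE 0.30, adjusted p 1.08e-07). Ccl1, a chemokine that acts on Ccr8, had a median of 306 CPM against 7.81 CPM and a log2 fold change of 4.0 (SE 0.31). Ifng, the interferon of Th1 and cytotoxic cells, ran from 74.8 through 300 to 719 CPM in members and from 27.3 through 73.8 to 204 CPM in CD8 T cells. Members were higher in 9 of 10 tumours although the ranges overlapped (log2 fold change 1.79, SE 0.20, edgeR adjusted p 7.41e-06). An Ifng UMI was found in 30.4% of members and 20.1% of CD8 T cells, and in 19.0% and 9.55% after thinning. Among cells with no Ptprc UMI it was found in 0.84%. Of the 15 helper cytokine genes 6 were tested, 4 were higher (Ccl1, Tnfsf11, Ifng and Tgfb1) and Xcl1 was lower. The list's median log2 fold change was 1.21, beside -0.01 over all genes tested. The count filter kept genes with enough counts in 1 class alone. List medians and counts of tested genes, here and in the later lists, therefore describe the genes kept and are no tests of a list.

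Csf2 and Cd40lg fell under the count filter, and with no filter their log2 fold changes were 3.31 (SE 0.31) and 4.84 (SE 0.38). The adjusted p-values of that fit are on another scale and are not given for them. For the V gene Trbv26 edgeR gave an adjusted p of 5.64e-30 (SE 0.28) without the filter and 0.000161 (SE 0.50) with it. Csf2, which encodes the myeloid growth factor GM-CSF, had a UMI in 12% of members and 1.33% of CD8 T cells. Cells with no Ptprc UMI, which are deeper and may express it themselves, had it in 1.43%. Tnf, a cytokine of many immune cells, had a UMI in 71 members (8.63%). Il4 was found in 3 members, Il17a in 3, Il2 in 8, Il10 in 9, Il21 in 22 and Il13 in 26. Of the 161 Il13 counts 62 came from 1 cell, and of the 17 Il17a counts 14 came from 1 cell.

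Receptors that receive or tune help were higher as well. Tnfrsf4, which encodes the costimulatory receptor OX40, ran from 310 through 408 to 1027 CPM in members and from 12.8 through 41.3 to 132 CPM in CD8 T cells, with no overlap (log2 fold change 3.07, SE 0.28, edgeR adjusted p 3.42e-07). Tnfrsf18, which encodes GITR, also did not overlap, at 223 to 595 CPM against 27.2 to 179 CPM. Icos was higher in 10 of 10 tumours with a log2 fold change of 1.37, and Cd27, a costimulatory receptor of less differentiated T cells, was lower at -1.24. Of 8 costimulation genes 6 were tested, 3 rose and 1 fell. Among 10 inhibitory receptor genes 4 were tested, and Ctla4, which competes with Cd28 for its ligands, was the one that passed (log2 fold change 1.67). Pdcd1, which encodes PD-1, stood at 0.47 (edgeR adjusted p 0.562). Ccr8 ran from 62.4 to 263 CPM in members and from 0 to 40.9 CPM in CD8 T cells. Cxcr6, a receptor of tissue-resident T cells, had a log2 fold change of 1.63 and was higher in 10 of 10 tumours.

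Some transcription factors and signalling genes were higher too. Maf, a factor of several helper subsets, ran from 62.4 to 270 CPM in members and from 11.0 to 37.0 CPM in CD8 T cells, with no overlap (log2 fold change 2.67). Rora, a nuclear receptor of helper and innate lymphoid cells, ran from 147 to 370 CPM against 21.4 to 140 CPM (log2 fold change 1.88). Of the 10 lineage factors 4 were tested, and these 2 passed. The subset-defining factors were sparse: Tbx21 had a UMI in 9.84% of members, Gata3 in 12.4% and Bcl6 in 5.71%. Among 11 T cell receptor signalling genes 8 were tested, and Cd247, Lcp2 and Zap70 rose with log2 fold changes of 1.46, 1.32 and 0.91. Of 12 activation genes 8 were tested, and Bhlhe40, Rel, Nr4a1 and Nr4a3 rose, by 1.02, 1.03, 0.84 and 0.76. The regulatory program, read in cells with no Foxp3 UMI, had 3 of 7 tested genes higher (Ctla4, Tnfrsf18 and Il2ra). Regulatory cells whose Foxp3 transcript was missed may be among these members, and their part was not tested. None of 13 proliferation genes tested passed, with a median of -0.27, and Mki67 stood at -0.51 (edgeR adjusted p 0.405). Dusp14, a phosphatase, and Ramp3, a receptor partner, rose by 2.41 and 2.02.

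Genes of killing were lower. All 5 cytotoxic genes tested, of 13 listed, fell: Klrd1, Nkg7, Ctsw, Gzmb and Gzma, with a list median of -1.48. Gzmb, a granule protease, ran from 16.4 through 107 to 814 CPM in members and from 183 through 436 to 866 CPM in CD8 T cells, and members were higher in 2 of 10 tumours (log2 fold change -1.48, SE 0.37, edgeR adjusted p 0.0266). Ccl5, a chemokine of effector CD8 T cells, ran from 42.1 to 798 CPM against 1249 to 2893 CPM, with no overlap (log2 fold change -2.47). Ly6c2, a surface protein of activated CD8 T cells, had the largest fall of the 3691 genes tested, at -3.31 (SE 0.28), with a median of 75.8 CPM against 938 CPM. Xcl1 and Cd7 also did not overlap, at 0 to 65.4 against 95.6 to 574 CPM and at 0 to 35.0 against 81.7 to 191 CPM. Ccr7, which guides naive and central memory T cells to lymph nodes, was lower at -1.72 (SE 0.40), and was the 1 gene of 3 tested in the naive and memory list that passed. It passed in 7 of 11 alternatives. Tcf7 and Il7r had a UMI in 4.25% and 8.87% of members. Gimap7, a GTPase gene of lymphocytes, stood at -2.12. Calls at the edge depended on the setting: Gzma passed in 5 of 8 alternatives that gave it a value, Cd2 in 6 of 11, Il2ra in 4 of 7, Tgfb1 in 4 of 11 and Nr4a1 in 7 of 11.

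Trbv26 was itself among the 10 largest rises, at 33.8 to 360 CPM in members against 0 to 54.5 CPM in CD8 T cells (log2 fold change 3.47, SE 0.50, edgeR adjusted p 0.000161). It passed in 8 of 10 alternatives, over which the log2 fold change ran from 1.27 to 5.26. Trav6-7-dv9 fell under the filter, and edgeR with no filter gave it 4.11 on the log2 scale (SE 0.32). The adjusted p of that fit is not set beside that of Trbv26 here, since the 2 fits differ in scale. In the subset lists, 4 of 7 tested Th1 genes rose (Ifng, Cxcr6, Bhlhe40 and Il12rb2) and Ccl5 fell, with a median of 1.02. Ccr8 was the Th2 gene that passed of 2 tested, Maf the follicular gene of 2, and no Th17 gene passed of 2. Interferon-stimulated genes had 2 of 11 tested members higher (Ly6a and Ifi27l2a), with a median of 0.20. The stress and dissociation list had Junb alone among 8 tested. No gene of the Mif axis passed among 4 tested, and Mif itself had a log2 fold change of 0.00 (SE 0.24). Neither macrophage gene tested passed, nor any of the 5 tested genes of line and stroma.

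**Figure D4:**
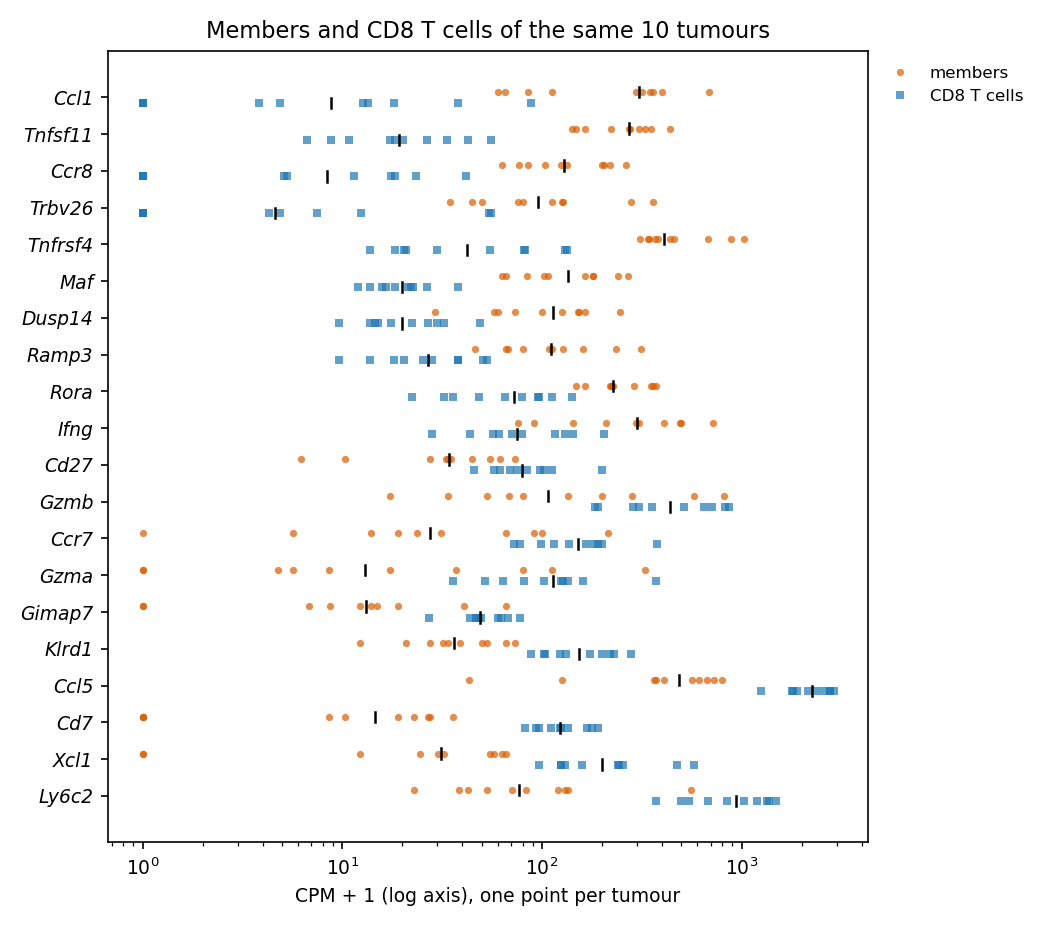
CPM plus 1 (log axis) of the 10 largest rises and 10 largest falls past the threshold with a mean log2 CPM of at least 5, in members (circles) and CD8 T cells (squares) of the same 10 tumours, with black bars at medians. Tnfsf11, Tnfrsf4 and Ccl5 show no overlap between the classes.

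Regulatory T cells were the nearest class, since they carry Cd4 and differ in the gate only by Foxp3. Members were higher for effector cytokines and Cxcr6, and lower for costimulatory receptors and for genes of the regulatory program. No tumour had 20 cells of both classes, so the 82 regulatory cells were summed per library and compared in 6 pairs. The pairs were matched by library alone, so their classes can differ in the mix of tumours, days and, in mixed libraries, lines and groups. In the library of control line 15, tumour A of day 16 gave 10 of 17 regulatory cells and 21 of 51 members. The smallest regulatory sum, of control line 18, held 8 cells and 16014 UMIs. At the same edgeR threshold 37 of 2096 genes passed (1.77%), 10 upward (0.477%) and 27 downward (1.29%). Csf2 ran from 74.8 through 125 to 357 CPM in members, and was at 0 in most regulatory sums, which reached 21.3 CPM (log2 fold change 4.90, SE 0.60). Ifng ran from 232 to 1268 CPM in members and from 0 to 55.7 CPM in regulatory cells, with no overlap (log2 fold change 4.43, SE 0.45, edgeR adjusted p 5.37e-05). The 1268 CPM of mixed library 1 include 487 counts from tumour C of line 19 at day 6, with 273 of its counts in 1 cell, and the other 5 libraries reached 533 CPM. Tnfsf11 and Cxcr6 did not overlap either, with log2 fold changes of 3.17 and 2.60. Of the 15 helper cytokines 5 were tested, Csf2, Ifng and Tnfsf11 rose, and none fell. Ccl1 ran from 58.9 to 257 CPM in members and had no count in any regulatory sum, and fell under the filter. Fitted fold changes against sums at 0 depend on the prior count and give no bound.

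Of 8 costimulation genes 6 were tested and 5 were lower in members: Tnfrsf9, Cd27, Icos, Tnfrsf4 and Tnfrsf18. Icos, which was higher than in CD8 T cells, ran from 158 to 407 CPM in members and from 527 to 914 CPM in regulatory cells (log2 fold change -1.09). Tnfrsf4 stood at a median of 453 CPM against 991 CPM, and its ranges overlapped. Maf, also higher than in CD8 T cells, was lower than in regulatory cells (log2 fold change -1.31), with medians of 107 against 272 CPM. It passed in 8 of 11 alternatives. Ccr8 had medians of 113 against 189 CPM, was higher in members in 1 of 6 libraries, and was not called. Of the 14 regulatory program genes 7 were tested and 5 were lower. Ikzf2, the factor Helios of many regulatory cells, ran from 32.6 to 124 CPM against 209 to 624 CPM (log2 fold change -2.29, SE 0.28, edgeR adjusted p 0.000185). Il2ra, the high-affinity interleukin 2 receptor chain, ran from 45.4 to 141 CPM against 144 to 532 CPM. Ctla4, Tnfrsf18 and Areg, which encodes a growth factor of repair, were the others. Gzmb was lower in members here too, at 143 to 283 CPM against 540 to 1380 CPM with no overlap (log2 fold change -2.24). Ctsw went the other way and was higher (edgeR adjusted p 0.0499, and 0.08 without the WT tumours). Without the WT tumours 34 genes passed. Over cells with fewer than 3 line-list UMIs 35 of 740 genes passed, 20 of them shared with the 37. With at least 2 Cd4 UMIs no gene passed and 61 had an unadjusted p under 0.05. Leaving out control line 15 gave 20 genes and leaving out line 19 gave 10. Several calls were at the edge: Icos passed in 7 of 12 alternatives, over which its log2 fold change ran from -1.16 to -0.59, Tnfrsf18 in 8 of 12, Tnfrsf4 in 9 of 12 and Ctsw in 4 of 8. Trbv26 did not pass (log2 fold change 1.05, edgeR adjusted p 0.554).

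**Figure D5:**
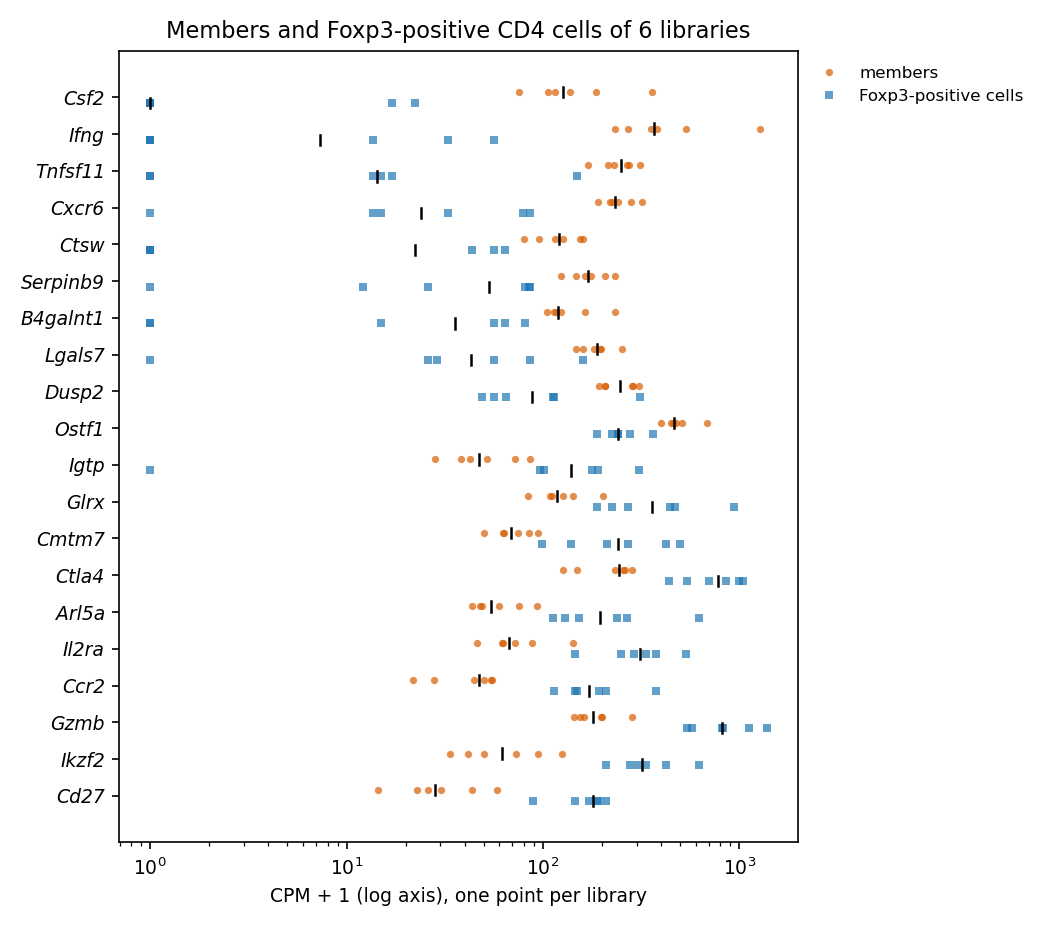
CPM plus 1 (log axis) of the 10 rises and the 10 largest falls against regulatory T cells, as sums over each of 6 libraries, with black bars at medians. Ifng lies at 232 to 1268 CPM in members and at 0 to 55.7 CPM in Foxp3-positive cells.

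By day, just 1 tumour of day 6 had at least 20 members, B of line 19, so the fit compares that tumour with those of day 16, assumes that it varies like them, and is no test of day. In it 4 of 5848 genes passed (edgeR, 0.0684%), all higher in the day 6 tumour. Gzmb stood at 814 CPM there and at 8.2 to 283 CPM in the tumours of day 16 in the fit (log2 fold change -4.34, SE 0.62, edgeR adjusted p 0.00017). Pooled over all members, Gzmb stood at 458 CPM (day 6), 169 CPM (day 10) and 76.3 CPM (day 16), and over those with few line-list UMIs at 788, 344 and 131 CPM. Of the 225 Gzmb counts pooled over all members of day 6, 123 came from the same tumour B of line 19. A Gzmb UMI was found in 36.4% of day 6 members and 18.3% of all members. Ccl4, a chemokine, and Dcn, a matrix gene, differed by -4.41 and -5.41 on the log2 scale. Of the 80 Ccl4 counts in that tumour 43 came from 1 cell, and of the 32 Dcn counts 30 came from 1 cell, as did 55 of the 123 Gzmb counts. Ifi27l2a, an interferon-stimulated gene, differed by -1.82. Pooled over all members it stood at 2017 CPM (day 6) and 1470 CPM (day 16), over those with few line-list UMIs at 2764 and 2435 CPM, and tumour C of line 19 at day 6 had 718 CPM. DESeq2 called none of the 4, and 178 genes had an unadjusted p under 0.05 in it.

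Mif KO and control members could be compared in few tumours. Mif itself was counted first. Members of control lines 15 and 18 had 1787 and 1792 CPM, and those of Mif KO lines 19 and 24 had 834 and 1041 CPM. Over members with fewer than 3 line-list UMIs the order was lost, with 1012, 1190, 1299 and 959 CPM. The labels attach the knockout to the line, and members are T cells, so Mif in members is no check of the knockout. In the fit over tumours with at least 20 members, 10 Mif KO tumours stood against 1 control tumour, A of line 15 at day 16, which is assumed to vary like the rest, so the fit describes that tumour and is no test of Mif KO. Of 5848 genes, 1 passed (edgeR, 0.0171%), and 421 had an unadjusted p under 0.05. That gene was Cavin2, a caveolae gene of endothelial and mesenchymal cells, at 261 CPM in the control tumour and 0 to 42.1 CPM in the Mif KO tumours (log2 fold change -3.50, SE 0.49, edgeR adjusted p 0.00186). Over members with few line-list UMIs it had 0, 19.7, 16.9 and 5.76 CPM in lines 15, 18, 19 and 24, so its difference moved with the line-list UMIs, whose part was not tested. Other control tumours with at least 5 members had 0 to 166 CPM, and smaller Mif KO tumours reached 121 CPM (tumour A of line 19 at day 16, 10 members).

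With at least 10 members per tumour, 14 Mif KO tumours stood against 5 control tumours. No gene of 1750 passed in edgeR, with 219 at an unadjusted p under 0.05, and DESeq2 called 23. Nr4a3, an early gene of T cell receptor signalling, stood at 65.3, 57.8, 21.2, 20.6 and 27.6 CPM in the 5 control tumours. These values rest on 8, 2, 1, 2 and 1 counts. In the 14 Mif KO tumours it stood at 67.7 to 327 CPM. Every Mif KO tumour lay above every control tumour at this size, but smaller tumours did not keep this order. How many of the 1750 genes separate the groups in this way was not counted. The 5 control tumours of 5 to 7 members had 82.8, 126, 152, 159 and 170 CPM, on 1 to 4 counts each, all above the larger control tumours and inside the Mif KO range, and a Mif KO tumour of 9 members had 49 CPM. The log2 fold change of 2.07 (SE 0.43) had an edgeR adjusted p of 0.0741. With 1 sum per line, where lines are the samples, it was 1.18 (edgeR adjusted p 0.706). With the mean per line it was 2.10 (edgeR adjusted p 0.0179). That fit contrasts averages of lines but takes its error from the 19 tumours, so lines are not its replicates. DESeq2 gave 2.14 (adjusted p 0.00708), and over members with few line-list UMIs edgeR gave 2.06 (adjusted p 0.0329). The range of its log2 fold change over alternatives was 1.17 to 3.33. The 3.33 came from the mixed libraries alone, which held 1 control tumour of this size, C of line 18 at day 16. Nr4a3 missed the threshold without control line 18 (1.39, adjusted p 0.492) and passed without line 19 (adjusted p 0.00524), both in edgeR. With library as a term it was 2.78 and missed as well. Each single-line library holds 1 group, so that value rests on the same control tumour. Fosb, an immediate early gene of the stress and dissociation list, stood at 2.27 with the same adjusted p of 0.0741, and that list had a median of 0.45 over 8 genes tested. Fosb passed in DESeq2 (2.23, adjusted p 0.00708) and in edgeR with the mean per line (adjusted p 0.0179) and without line 19 (adjusted p 0.00524). In edgeR it missed with 1 sum per line (1.49, adjusted p 0.684) and over members with few line-list UMIs (2.16, adjusted p 0.186). With library as a term, which rests on the same single control tumour, it was 0.65 and missed as well. The part of this list in the Nr4a3 difference was not tested. Nr4a3, Fosb and Mif were named after their values were seen. For Mif edgeR gave -1.17 on the log2 scale (SE 0.30, adjusted p 0.103), with -0.48 over members with few line-list UMIs and -1.62 (adjusted p 0.022) without line 24. Within the mixed libraries it was 0.23, on 5 tumours of which 1 was control. DESeq2 called Mif at -1.18 (adjusted p 0.0429), and edgeR with the mean per line at -1.25 (adjusted p 0.0437). With 1 sum per line edgeR gave -0.9 (adjusted p 0.526). Without line 19 the fit called 41 genes and without line 24 it called 2. None of the lists had a gene past the threshold, and the activation list had a median of 0.51, beside 0.00 over all genes tested. The line and stroma list stood at 0.64 over 4 genes, the interferon-stimulated list at 0.47 over 5, and the 1 macrophage gene tested at 4.71, and DESeq2 called Cd74, an antigen presentation gene, at 2.99 (adjusted p 0.0108). Their part in the activation median was not tested. Ifng in members stood at 205, 383, 680 and 294 CPM in lines 15, 18, 19 and 24, with 487 of the 884 counts of line 19 in the 9 members of tumour C at day 6, and Tnfrsf4 at 554 CPM in control and 447 CPM in Mif KO members.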

How the data were processed

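Single-cell libraries were made from dissociated tumours with a 5′ kit and hashtag antibodies, per the labels' protocols. For 6 libraries the deposited values are unnormalized counts of UMIs for each gene in each barcode (Cell Ranger 6.0.0, build mm10, per the submitters' processing notes). Per the labels, group came from the line number, and line and day of each hashtag from the deposited sheet.

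Barcodes were kept with at least 300 genes, at most 15% mitochondrial UMIs and a top hashtag of at least 20 counts and 3 times the second. Of 176381 barcodes 116375 remained, and 2 of 47 hashtags had no cell. Library totals ran from 151385933 to 239699029 UMIs. Counts were summed per tumour (per library against regulatory cells, since no tumour held 20 of both) and fitted in edgeR 4.0.16 in R 4.3.3 (filterByExpr, TMM, glmQLFTest), with Benjamini-Hochberg adjustment at 0.05. Each SE is the absolute log2 fold change divided by the root of F. Shares were tested by permutation with numpy 2.4.6 in Python 3.11.15. DESeq2 1.42.0 was an alternative. The scripts were tested on simulated counts. Named genes were those of 25 lists and the 10 largest changes each way with a mean log2 CPM of at least 5, and for Mif KO against control both line means on 1 side. Of 228 list genes 227 were found. Members and lists were chosen with earlier results of these data known. No source names the tumours as separate mice, so p-values measure the spread between these samples.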

Additional observations from a re-analysis of the deposited data

Results flagged for a closer look

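In 50 groups of 4 to 10 values, 6 had a sample far from the others. The cut-off assumes normally spread, independent values. Many of these groups are sums of counts from the same tumours, so the number is not set against chance. Members were 14.8% of CD3-gated cells in tumour B of line 24, the lowest of 6 Mif KO tumours of day 10, whose median was 21.4%. In the control tumours of day 16 the highest share of all cells was 0.725%, in tumour A of line 15. Over the 10 tumours compared with CD8 T cells, the highest member sums were 559 CPM for Ly6c2, 327 CPM for Gzma and 213 CPM for Ccr7, beside medians of 75.8, 12 and 26.4 CPM. Over the 6 libraries the highest Ifng sum was 1268 CPM, beside a median of 368 CPM, and 273 of its counts came from 1 cell.

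The 34 members of the 3 WT tumours entered no test between Mif KO and control. They are in the mixed library 2 sums set against regulatory cells. The 18 of day 10 are also in the alternative fit against CD8 T cells with at least 10 cells of each class. Genes of the helper cytokine, Th2 and cytotoxic lists were searched for rises alone. Those given had an interval of counting error, over summed cells, wholly above that of control members. Such an interval does not hold the spread between tumours. In the same lists Gzmb was lower in WT members, at 182 CPM against 243 CPM in control members. Ccl1 stood at 842 CPM against 98.9 CPM, with 45 of 97 counts in 1 cell. Csf2 stood at 547 CPM against 222 CPM and Gzmc at 330 CPM against 76.5 CPM. Ifng stood at 642 CPM against 291 CPM, with 48 of 74 counts in 1 cell, and over members with fewer than 3 line-list UMIs the direction turned, at 396 CPM against 459 CPM. Il13 stood at 590 CPM against 7.46 CPM, with 62 of 68 counts in 1 cell, and at 91.5 CPM against 17 CPM over members with fewer than 3 line-list UMIs. Il1rl1 stood at 304 CPM against 101 CPM, Lta at 217 CPM against 59.7 CPM, Nkg7 at 564 CPM against 241 CPM and Tnfsf11 at 417 CPM against 250 CPM. These differences were not tested.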

How the results depend on the processing

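No replicate block could be fitted between Mif KO and control, because their lines share no replicate number. A library term was fitted instead, and the comparisons within tumours and libraries were blocked. Some planned fits could not be run for lack of tumours: for Mif KO against control with 20 members, at least 2 Cd4 UMIs, members of over 3 times their library's median UMIs (very deep members) left out, members with few line-list UMIs, the mixed libraries, the library term, the mean per line and control line 15 left out, and for day 16 against day 6, at least 2 Cd4 UMIs and line 19 left out. Control line 18 had no tumour in either fit. Day 16 alone was not run against regulatory cells.

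Without a filter on low counts, counts of called genes were 32 (Mif KO against control), 86 (with at least 10 members), 22 (day), 237 (CD8) and 110 (regulatory). With at least 10 members the counts were 0 (Mif KO) and 2 (day), and with sums per line 0. With at least 2 Cd4 UMIs they were 34 (CD8) and 0 (regulatory). Without very deep members they were 11 (at least 10 members), 0 (day) and 307 (CD8), and over members with fewer than 3 line-list UMIs 16, 7 and 225. DESeq2 gave 23 and 0 for the fits with at least 10 members and by day. The mean per line, whose error came from tumours, gave 4 with at least 10 members. The single-line libraries alone and the library term gave 11 each by day. With a line left out, counts ran from 4 to 11 (Mif KO), 0 to 41 (at least 10 members), 4 to 9 (day), 19 to 138 (CD8) and 10 to 28 (regulatory). Where a count was 0 in edgeR, 219 (at least 10 members), 520 (sums per line), 120 (day, without very deep members) and 61 genes (regulatory, 2 Cd4 UMIs) had an unadjusted p under 0.05, and 178 in DESeq2 by day. The causes were not tested.

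The difference in the share of CD3-gated cells stayed positive in each alternative, and missed the threshold at 6.22 points (at least 1000 UMIs and at most 10% mitochondrial), 2.20 (2 Cd4 UMIs), 2.78 (thinned), 1.88 (20 CD3-gated cells), 4.56 (few line-list UMIs), 2.88 (cells with a Cd4, CD8 or Foxp3 UMI), 12.7 (mixed libraries), 5.47 (mean per line) and 3.22 (without tumour C of line 15 at day 10). It also missed at 6.62 (without control line 18) and 3.58 (without line 19). It ran from 3.58 to 10.04 with a line left out. For day 16 against day 6, in Mif KO tumours alone, the difference in this share passed at 3.31 points with 2 Cd4 UMIs. The share of all cells missed the threshold over line means (0.907 points) and ran from 0.721 to 1.06 with a line left out. Members against CD8 T cells by day missed it at 10.4 points (2 Cd4 UMIs), 21.5 (few line-list UMIs) and 22.2 (single-line libraries), and ran from 12.7 to 34.4 with a line left out. Among named genes, Ccl4 turned to 5.62 by day without very deep members. Mif turned to 0.23 in the mixed libraries, which held 1 control tumour of at least 10 members, and 0.11 with sums per line over members with few line-list UMIs. Against CD8 T cells 358 of 423 gene values kept their direction and call and 65 kept the direction alone, and against regulatory cells 239 and 62 of 301. Depth limits genes with few UMIs: a median member had 1839.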
